A study of Mus musculus with 3 samples.

Results

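Collagens VI, XII and XIV are the matrix proteins that coat and connect the collagen I fibrils of tendon and its sheaths, and their 6 genes were followed here in a differentiating stem cell culture and in the embryonic tail. The members were taken by name: Col6a1, Col6a2, Col6a3 and Col6a6 of collagen VI, with Col12a1 and Col14a1, 6 of the 28953 genes counted over 3 single-cell libraries. All 6 had a row in each library. Together they held 35498 UMIs (unique molecular identifiers, each standing for 1 captured RNA molecule) in the day 10 culture, 35631 in the tail and 12425 in the day 6 culture.

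Collagen VI is assembled inside the cell from an α1, an α2 and an α3 chain, the products of Col6a1, Col6a2 and Col6a3, and is secreted as tetramers that join into beaded filaments around cells and between fibrils. The α6 chain of Col6a6 resembles α3 and is thought to take its place in some tissues. Collagens XII and XIV each consist of one kind of chain and belong to the FACIT collagens, which do not form fibrils themselves but lie on the surface of collagen I fibrils and help to set their diameter and spacing. Faults in the human genes of collagens VI and XII cause muscle disorders with loose distal joints and contractures.

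The study asked how closely tendon cells made from mouse embryonic stem cells (mESCs) resemble those of the embryo. Cells of the Differentiated Tenocytes library came from mESCs that carry ScxGFP, a green fluorescent reporter of the tendon gene Scx, and that were grown on fibroblast feeders beforehand. They formed embryoid bodies with the BMP inhibitor LDN-193189 until day 2, received LDN-193189 and the WNT agonist CHIR until day 6 and then TGFβ1, the hedgehog agonist SAG and FGF2 until day 10. The paraxial mesoderm library was taken at day 6, before the last step, and the E14.5 tail library from ScxGFP embryos whose cells were not sorted by the reporter.

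There was 1 library per condition, so no test over samples could be made and no p-value is given. Depth per cell was lowest in the day 10 culture (7821 cells, median 5622 UMIs) and highest in the tail (2052 cells, median 13512), with the day 6 culture between them (5954 cells, median 8171). Between 3 and 10 cell barcodes were shared by any 2 libraries. Levels are given as CPM, the UMIs of a gene per 1000000 UMIs summed over the cells of a cluster, with exact 95% Poisson intervals, and ratios and shares carry exact conditional and Clopper-Pearson intervals. All of them cover counting error only, and a second culture or embryo could differ by more.

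The cluster codes are those deposited with the cells, shared by the day 10 culture and the tail. Code 1 had the highest sum of the 9 tendon markers in each library (8866 CPM in the culture, 6261 CPM in the tail), with Scx at 2410 and 1472 CPM and Tnmd at 23.6 and 93.0 CPM. Its 10 leading genes in the tail held none of these markers but Osr1 and Myh11 of the loose connective tissue and smooth muscle lists. At 3000 UMIs a cell, 247 of 678 tail cells and 2368 of 2595 culture cells had a Scx UMI, so code 1 is called by its number. Code 2 carried the same genes with the proliferation genes, Top2a being at 1409 CPM in the culture and 1348 CPM in the tail. Code 4 joined Scx (1852 and 1905 CPM) with the cartilage collagen Col2a1 (2271 and 4282 CPM). The study's name fibrocartilage is not used for it, because the cell numbers given there for that name are those of code 3, whose markers were pluripotent-like in the culture. Code 9 was left unnamed: Col1a1 was high (2166 and 2870 CPM), Scx was low (178 and 90.1 CPM), and the 5 macrophage markers summed to 588 CPM in the culture and 1220 CPM in the tail. Day 6 codes were given separately and name other clusters.

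The start sites of 4 collagen VI genes are shown for the contrast on which the results turn, that of the Col6a1, Col6a2 and Col6a3 trio against Col6a6. Each sequence is the 250 bases before the RefSeq start on build GRCm38.p6, read on the minus strand. Col6a2 has a second RefSeq start, whose window at chr10:76623405-76623654 is not shown. Col6a1 lies at chr10:76726045-76726294, Col6a2 at chr10:76623631-76623880, Col6a3 at chr1:90843972-90844221 and Col6a6 at chr9:105828086-105828335. Capitals mark matches on either strand to CANNTG, the E-box letters that basic helix-loop-helix factors such as SCX recognise, and to GTCTG, the reverse complement of the Smad letters CAGAC.
Col6a1: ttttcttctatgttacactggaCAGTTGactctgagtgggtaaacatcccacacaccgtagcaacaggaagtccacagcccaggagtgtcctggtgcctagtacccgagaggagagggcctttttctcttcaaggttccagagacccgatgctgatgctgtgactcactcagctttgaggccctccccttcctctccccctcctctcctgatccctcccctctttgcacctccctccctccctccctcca
Col6a2: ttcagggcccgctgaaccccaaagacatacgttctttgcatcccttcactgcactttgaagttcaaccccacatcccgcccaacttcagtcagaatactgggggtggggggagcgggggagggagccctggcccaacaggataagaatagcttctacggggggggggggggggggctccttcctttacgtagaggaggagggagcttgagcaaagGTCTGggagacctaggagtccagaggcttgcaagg
Col6a3: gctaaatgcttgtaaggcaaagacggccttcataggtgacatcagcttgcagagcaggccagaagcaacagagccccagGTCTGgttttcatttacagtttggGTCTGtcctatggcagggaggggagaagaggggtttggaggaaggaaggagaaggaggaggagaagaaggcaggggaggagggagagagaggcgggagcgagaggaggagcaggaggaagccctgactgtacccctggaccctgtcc
Col6a6: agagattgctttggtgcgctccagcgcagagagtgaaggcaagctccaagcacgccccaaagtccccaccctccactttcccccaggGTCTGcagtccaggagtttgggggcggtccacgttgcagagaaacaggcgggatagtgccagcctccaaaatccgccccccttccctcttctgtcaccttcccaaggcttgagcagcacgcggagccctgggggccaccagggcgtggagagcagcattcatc
CANNTG was found in 1 of these 4 windows, that of Col6a1, and in 66.2% of all 32851 RefSeq windows of this length. GTCTG was found in the windows of Col6a2, Col6a3 and Col6a6, and in 42.2% of all windows. Neither TATAAA (12.4% of all windows) nor CCAAT (33.8%) was present in the 4 windows, and the second Col6a2 window held none of the 4 motifs and 14 CpG pairs. The Col6a6 window held 10 CpG pairs and those of the trio 3, 6 and 3, against a median of 6 over all windows. A match is a string of letters and says nothing of binding. In the RefSeq gene order Col6a1 and Col6a2 are neighbours on chromosome 10, Col6a6, Col6a5 and Col6a4 follow each other on chromosome 9, where Col12a1 also lies, Col6a3 is on chromosome 1 and Col14a1 on chromosome 15.

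The levels separated the members into 3 patterns over clusters. Col6a1, Col6a2, Col6a3 and Col12a1 were high in codes 1, 2, 4 and 9 of both libraries and in code 5 of the day 6 culture. Among clusters of at least 40 cells, Col14a1 was high in codes 1, 2 and 4 of both libraries but in code 9 of the tail alone. Tail code 14, with 38 cells, had Col14a1 at 202 CPM (129 UMIs). Col6a6 was a tail gene, 77.4% of its tail UMIs lying in code 1 and 15.7% in code 2. In the remaining clusters of at least 40 cells the first 4 genes had medians of 4.94 to 12.1 CPM in the day 10 culture and 8.91 to 29.6 CPM in the tail, and no level above 92.5 CPM.

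**Figure D1:**
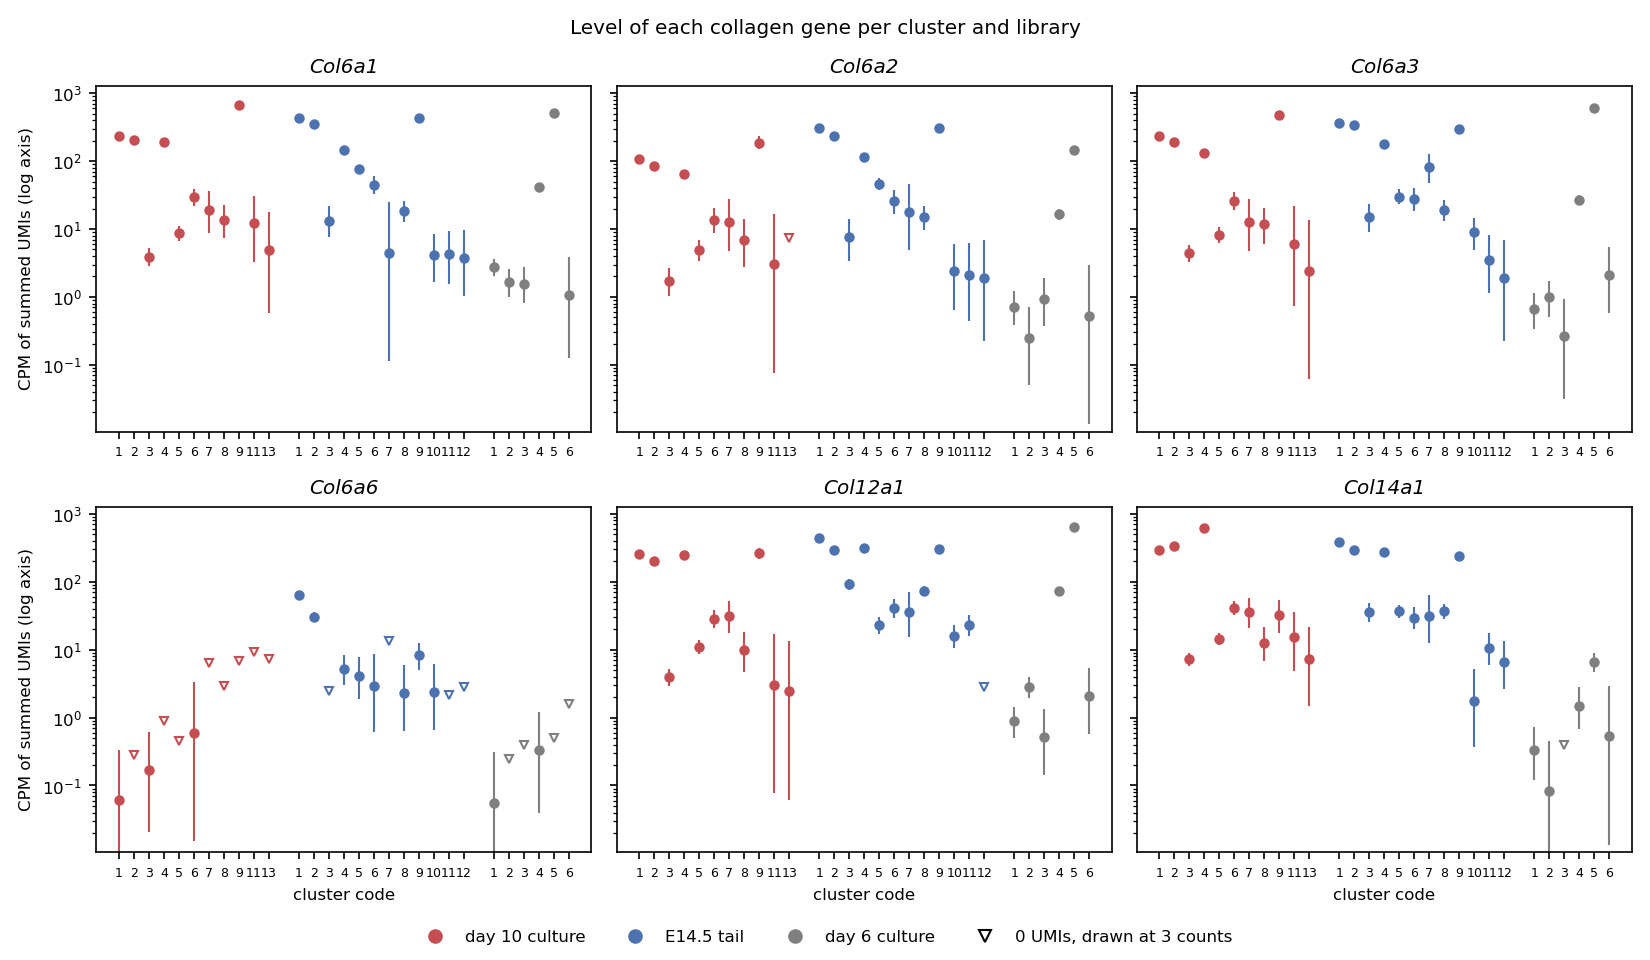
CPM of summed UMIs (log axis) of each gene in every cluster of at least 40 cells, by cluster code, for the day 10 culture (red), E14.5 tail (blue) and day 6 culture (grey, codes of its own), with exact 95% Poisson intervals and open triangles for clusters with 0 UMIs, drawn at 3 counts. Col6a6 reaches 64.6 CPM in tail code 1 and stays below 1 CPM wherever it was counted in the cultures, while the other members exceed 100 CPM in code 1 of both.

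Cell types not known for these collagens gave a comparison level. In culture code 3, the pluripotent-like cells (median 10370 UMIs), 0.0925% to 1.57% of cells had a UMI of a member once each cell was thinned to 3000 UMIs. In tail code 12, the blood cells (median 8392 UMIs), the range was 0% to 2.40% of 125 cells. The shares in code 1 below are far above these, apart from that of Col6a6 in the culture.

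The trio of collagen VI chains was lower in code 1 of the culture than in code 1 of the tail. Col6a1 stood at 237 CPM (3924 UMIs) in culture code 1 and 426 CPM (4311 UMIs) in tail code 1, a culture over tail ratio of 0.556 (0.532 to 0.580). Col6a2 stood at 109 and 310 CPM, a ratio of 0.351 (0.331 to 0.372). Col6a3 stood at 235 and 365 CPM, a ratio of 0.644 (0.616 to 0.674). Their intervals do not touch 1, and Col6a2 differed by more than the other chains.

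Col12a1 and Col14a1 were also lower in culture code 1, Col14a1 by the least. Col12a1 was at 256 CPM (249 to 264) in the culture and 439 CPM (426 to 452) in the tail, a ratio of 0.584 (0.559 to 0.609). Col14a1 was at 296 CPM (288 to 305) and 386 CPM (374 to 398), a ratio of 0.768 (0.736 to 0.801). All 6 members were thus below 1, with a median ratio of 0.569, where the median over the 10418 genes tested was 0.867. Col6a6 entered the test through the tail alone, so its place below 1 was fixed. The share of all genes below 1 is not given, so the count does not set the members apart.

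Past 2-fold, with detection in at least 10% of cells of either library, were 2 of the 6 members in code 1, Col6a2 and Col6a6, both higher in the tail. Col6a6 reached that detection limit through the tail alone (31.5% of cells, against 0.0337% in the culture), so its call was fixed by the filter. Over all genes tested 19.4% were past 2-fold, 13.6% towards the tail and 5.76% towards the culture. With so few members this share cannot be told from that of other genes. When ratios were taken relative to their median, the genes higher in culture and tail went from 600 and 1420 to 800 and 1082, and the same number of members passed. For the other 4 members 17.3% to 38.1% of the genes tested had a lower ratio, so their size does not set them apart from other genes.

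In code 2, the proliferating cells, the trio was again lower in the culture. Col6a1 was at 203 CPM in the culture and 347 CPM in the tail (ratio 0.586, 0.549 to 0.626), Col6a2 at 84.9 and 232 CPM (0.366, 0.334 to 0.400) and Col6a3 at 192 and 338 CPM (0.569, 0.532 to 0.609). Col12a1 was at 202 and 298 CPM (0.677, 0.632 to 0.726). Col14a1 went the other way, with 337 CPM in the culture and 294 CPM in the tail (1.15, 1.08 to 1.23). Again 2 of the 6 members passed 2-fold, Col6a2 and Col6a6 towards the tail, against 19.1% of 11232 genes in either direction, 13.6% towards the tail and 5.5% towards the culture. Col6a6 was again admitted through the tail alone (23.1% of cells before thinning, against 0%). With cells that had a Scx UMI alone, Col6a2 (0.527) did not pass. The 8 loose connective tissue and dermis markers moved with the trio, summing to 500 CPM in culture code 2 and 1311 CPM in tail code 2. Their part in its difference was not tested.

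In code 4 the members moved apart from each other. Col14a1 reached its highest level of any cluster in the culture, 613 CPM (2037 UMIs), against 274 CPM (907 UMIs) in the tail, a ratio of 2.23 (2.06 to 2.42). Col6a1 was also higher in the culture, 188 against 146 CPM (1.28, 1.14 to 1.45). Col6a2 was lower, 64.7 against 114 CPM (0.569, 0.479 to 0.674), as were Col6a3, 133 against 180 CPM (0.737, 0.650 to 0.835), and Col12a1, 248 against 308 CPM (0.805, 0.734 to 0.884). Col14a1 was the only one of 5 members tested to pass 2-fold here, where 17.9% of 9986 genes did in either direction, 4.86% towards the culture and 13% towards the tail, and 96.2% of the genes tested had a lower ratio.

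Centring on the median ratio moved the split of genes past 2-fold also in the other clusters, from 618 and 1525 (culture and tail) to 826 and 1210 in code 2 and from 485 and 1300 to 669 and 1005 in code 4. No member crossed 2-fold by it in codes 1, 2 and 4.

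**Figure D2:**
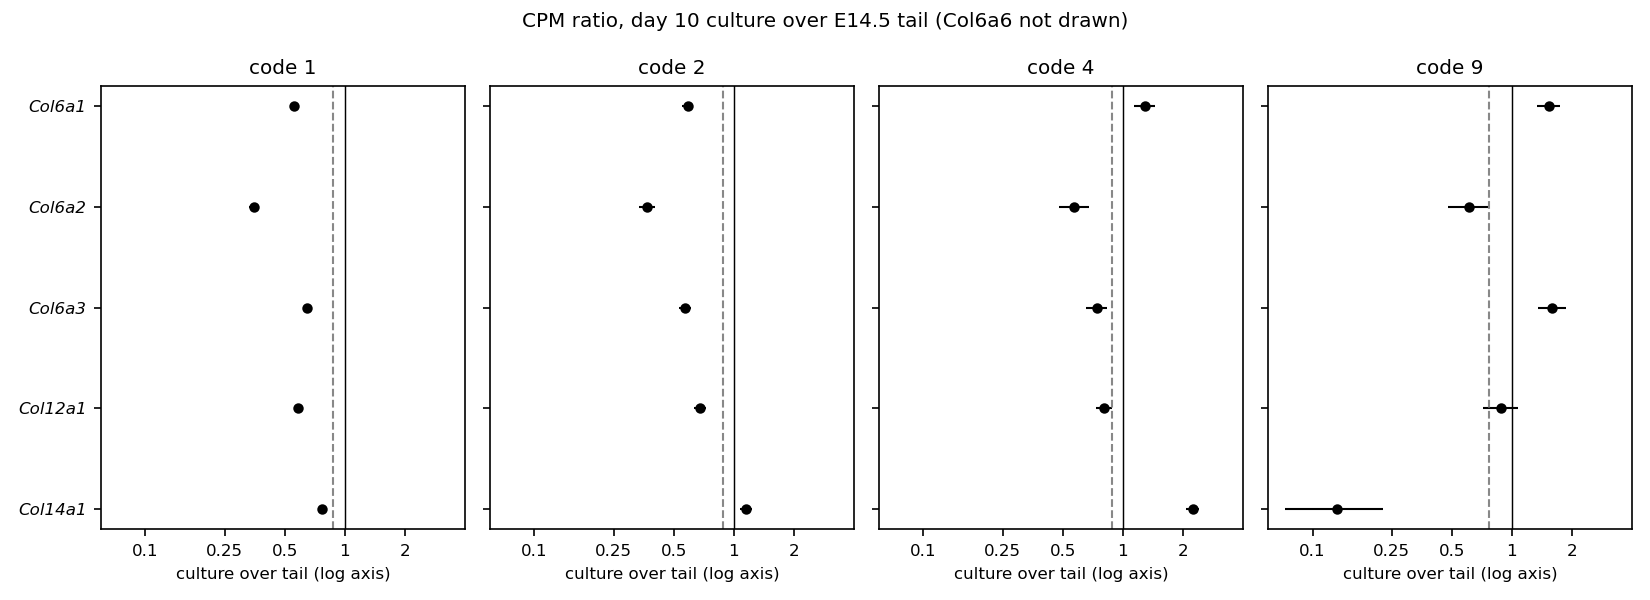
CPM ratio of the day 10 culture over the E14.5 tail (log axis) for 5 members in codes 1, 2, 4 and 9, with 95% conditional intervals, a solid line at 1 and a dashed line at the median ratio of all genes tested in that cluster. Col6a2 lies left of 1 in all 4 clusters, and Col14a1 runs from 0.133 in code 9 to 2.23 in code 4.

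The cartilage genes of code 4 also differed between the libraries, the 7 markers summing to 5638 CPM in the culture and 11162 CPM in the tail. Their part in the Col14a1 difference was not tested. Within each library Col14a1 ran in opposite directions from code 1 to code 4. It was 2.07 times (1.96 to 2.18) its code 1 level in the culture and 0.710 times (0.660 to 0.764) in the tail. Cells with a Col14a1 UMI, at 3000 UMIs each, made up 74.1% (70.5 to 77.5) of 641 cells in culture code 4 and 36.7% (30.6 to 43.1) of 240 cells in tail code 4. The former leaves out 214 of 855 shallower cells, and unthinned the culture share was 79.4%.

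The trio fell less from code 1 to code 4 in the culture than in the tail. Col6a1 in code 4 was 0.795 times (0.729 to 0.865) its code 1 level in the culture and 0.344 times (0.312 to 0.378) in the tail. For Col6a2 the values were 0.595 (0.514 to 0.685) and 0.367 (0.329 to 0.408). For Col6a3 they were 0.564 (0.510 to 0.623) and 0.493 (0.452 to 0.538), whose intervals overlap. Col12a1 stayed at 0.970 times (0.899 to 1.04) in the culture and was 0.703 times (0.656 to 0.752) in the tail.

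The chains of one trimer can be set against each other within a library, and the ratio of a pair can then be followed from cluster to cluster. Col6a2 made up 18.7% (18.0 to 19.5) of the UMIs of the 3 chains in culture code 1 and 28.2% (27.3 to 29.0) in tail code 1. The shares were 17.7% and 25.3% in code 2, 16.8% and 25.8% in code 4, and 14.1% and 29.5% in code 9. Each of these tail clusters lay above each of the culture clusters. In the day 6 culture the share was 19.5% (16.1 to 23.1) in code 4 and 11.5% (10.8 to 12.2) in code 5, so that these clusters, too, lay below those of the tail.

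Per Col6a1 UMI, Col6a2 had 0.460 UMIs in culture code 1 and 0.728 in tail code 1, a ratio of ratios of 0.632 (0.587 to 0.680). It was 0.624 (0.557 to 0.698) in code 2, 0.443 (0.359 to 0.547) in code 4 and 0.398 (0.303 to 0.520) in code 9. Col6a3 per Col6a1 had no such common direction, at 1.16 (1.09 to 1.24), 0.971 (0.883 to 1.07), 0.574 (0.482 to 0.684) and 1.04 (0.845 to 1.28) in the same order. UMI counts of different genes are not on a scale per length or per molecule, so the shares do not give the chains' proportions in RNA or protein. Library and condition cannot be told apart in this difference.

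**Figure D3:**
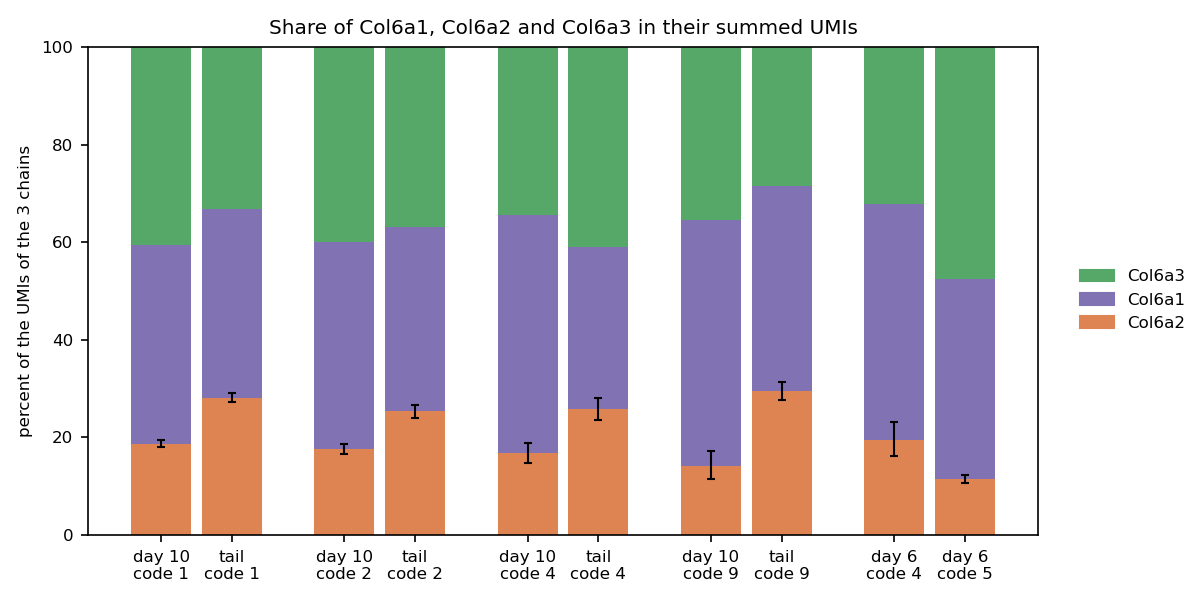
Percent of the summed UMIs of Col6a1 (purple), Col6a2 (orange, with exact 95% binomial intervals) and Col6a3 (green) in codes 1, 2, 4 and 9 of the day 10 culture and the E14.5 tail and in codes 4 and 5 of the day 6 culture. Col6a2 takes 11.5% to 19.5% in the culture clusters and 25.3% to 29.5% in the tail clusters.

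The chains were found together in single cells. With every cell at 3000 UMIs, all 3 chains were detected in 7.98% (6.96 to 9.09) of 2595 cells of culture code 1 and in 19.3% (16.4 to 22.5) of 678 cells of tail code 1. Independent detection at the same rates would give 5.40% and 15.5%. None of the chains was detected in 25.1% (23.4 to 26.8) of the former and 14.0% (11.5 to 16.9) of the latter. Independence would give 21.85% and 9.64%. In code 4 the share with all 3 was 3.90% (2.54 to 5.70) in the culture and 3.33% (1.45 to 6.46) in the tail, intervals that overlap. Independence would give 1.94% and 1.82% there, and the tail interval includes its value. Over cells of code 1 the UMI counts of Col6a1 correlated with those of Col6a2 at r = 0.23 in the culture and 0.36 in the tail, and with those of Col6a3 at 0.14 and 0.32. These are descriptions over cells of 1 library each, in sparse counts.

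Col6a6 was close to absent from the culture. Its 4 UMIs in the 7821 cells of the day 10 culture included 1 in code 1, where the tail had 654 UMIs in 685 cells (0.0603 against 64.6 CPM). The culture over tail ratio was 0.000933, with an interval of 2.36e-05 to 0.00522, and 0.00659 in cells thinned to 3000 UMIs, where the culture is set at the floor of 3 counts. In code 2 it had 0 UMIs in the culture and 133 in the tail (30.7 CPM), at least 87.9-fold higher in the tail by the exact limit and 110-fold with a floor of 3 counts over the culture cluster, and in thinned cells the culture over tail ratio with that floor was 0.052. In code 4 it had 0 and 17 UMIs (5.14 CPM in the tail), at least 4.15-fold higher by the exact limit and 5.70-fold with the floor. In code 9 the 0 against 20 UMIs did not settle a direction, the limit of tail over culture being 0.891. The day 6 culture held 3 UMIs of Col6a6 in all.

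Col6a6 was found in a minority of tail code 1 cells. At 3000 UMIs it was detected in 87 of 678 cells of code 1 (12.8%, 10.4 to 15.6) and in 6 of 186 cells of code 2 (3.23%, 1.19 to 6.89). In tail blood cells it was detected in 0 of 125, and in culture code 1 in 0 of 2595 cells, which allows a share of up to 0.116% of cells with a UMI as 3 cells of the total and 0.142% as the exact upper limit. Without thinning 31.5% of tail code 1 cells had a UMI. Within the tail its CPM in code 2 was 0.476 times (0.392 to 0.574) that in code 1, in code 9 it was 0.127 times (0.0773 to 0.198) and in code 4 it was 0.0796 times (0.0461 to 0.128).

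The cells with Col6a6 were poor in Scx. Those 87 cells had Scx at 586 CPM, against 1619 CPM in the 591 cells without (0.362, 0.306 to 0.426), and Tnmd, the tendon membrane protein tenomodulin, at 11.5 against 93.1 CPM (0.124, 0.0252 to 0.367). This Tnmd value rests on 3 UMIs in the cells with Col6a6, and with cells at 5000 UMIs the ratio was 0.452. Of the 9 tendon markers these were the 2 that were lower. Higher were Postn at 705 against 353 CPM (interval of the ratio 1.68 to 2.36), Thbs4 at 76.6 against 32.7 CPM (2.34, 1.33 to 3.95) and Col1a1 (1.20, 1.11 to 1.29), and the intervals of Mkx, Fbn2, Thbs2 and Egr1 included 1. The cells had more of other collagen VI chains, with Col6a1 at 701 against 363 CPM (1.93, 1.63 to 2.28) and Col6a2 at 433 against 249 CPM (1.74, 1.40 to 2.14). Col6a3 was at 414 against 343 CPM, a difference its interval does not settle (1.20, 0.972 to 1.48). Col12a1 (0.972, 0.785 to 1.19) and Col14a1 (0.983, 0.786 to 1.22) were at about the same level in both sets of cells.

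Loose connective tissue and dermis markers moved with Col6a6 between the libraries, and their part in its difference was not tested. The 8 listed genes summed to 491 CPM in culture code 1 and 1730 CPM in tail code 1, with Dpt and Osr2 at 0 UMIs in the former and 7 of 8 at 10 CPM or more in the latter. Osr2 stood at 154 CPM in tail code 1 and Cxcl14 at 443 CPM, against 0.663 CPM of Cxcl14 in culture code 1. Within tail code 1 the cells with Col6a6 had Osr1, a regulator of connective tissue fibroblasts, at 203 against 102 CPM (1.99, 1.44 to 2.72). Lum was also higher in them (1.30, 1.10 to 1.53), and the intervals of the other 6 genes of the list between the same cells included 1. Of the remaining collagen VI chains Col6a5 had 29 UMIs (2.86 CPM) and Col6a4 21 UMIs in tail code 1, and neither had any in culture code 1. Col6a5 had 25 UMIs in culture code 3 (2.13 CPM) and 5 in culture code 8 (4.88 CPM), and it was not analysed here in the day 6 library.

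Splitting tail code 1 by Scx separated the 4 collagen VI members. Among cells at 3000 UMIs, the 247 with a Scx UMI had less than the 431 without for Col6a6 (29.7 against 75.0 CPM, ratio 0.396, 0.237 to 0.634), Col6a1 (0.602, 0.513 to 0.705), Col6a2 (0.672, 0.554 to 0.811) and Col6a3 (0.747, 0.634 to 0.879). Col12a1 (1.03, 0.896 to 1.19) and Col14a1 (0.953, 0.819 to 1.11) were level between them. In culture code 1 Col6a1 (0.847, 0.731 to 0.987), Col6a2 (0.691, 0.563 to 0.855) and Col12a1 (0.692, 0.603 to 0.797) were lower in the 2368 cells with a Scx UMI than in the 227 without, Col14a1 was higher (1.17, 1.01 to 1.36) and the interval of Col6a3 included 1 (0.781 to 1.07). In tail code 4 Col6a1 and Col6a3 ran the other way, at 2.17 (1.32 to 3.71) and 1.94 (1.27 to 3.04) times in cells with a Scx UMI, and the interval of Col6a2 included 1 (1.32, 0.788 to 2.27). Col14a1 was lower in them (0.619, 0.457 to 0.838), whereas in culture code 2 it was higher in cells with a Scx UMI (1.60, 1.26 to 2.05). In culture code 4 Col6a1 was lower in such cells (0.573, 0.446 to 0.744).

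Loose connective tissue markers moved with the Scx split too, and their part in it was not tested. In tail code 1, cells with and without a Scx UMI had Lum at 320 and 673 CPM, Cxcl14 at 247 and 553 CPM, Osr1 at 56.7 and 148 CPM and Osr2 at 67.5 and 185 CPM, while Pdgfra was at 260.5 and 253 CPM. In culture code 1 Osr1 was at 14.4 and 66.1 CPM and Lum at 388 and 614 CPM. The markers went both ways in tail code 4, with Pdgfra at 272 and 129 CPM and Osr2 at 47.6 and 10.8 CPM. Lum was at 36.3 and 158 CPM there.

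Collagens XII and XIV were each unevenly spread over the cells of tail code 1. In tail code 1 the 68 of 678 cells richest in Col14a1 held 59.6% of its UMIs, and 62 cells had 5 UMIs or more of the 3000. For Col12a1 the share was 50.4%, with 44 cells at 5 UMIs or more. In culture code 1 the 260 richest of 2595 cells held 43.5% of the Col14a1 UMIs and 45.5% of those of Col12a1. The variance over the mean was 4.47 for Col14a1 in the tail and 1.99 in the culture, and 3.67 and 1.76 for Col12a1.

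The shares of cells with a UMI are read with this spread in view. Col14a1 was detected in 34.8% (31.2 to 38.5) of tail code 1 cells and in 48.4% (46.5 to 50.4) of culture code 1 cells, against the order of its CPM, so no order is drawn from the shares.

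In tail code 1, 158 of 678 cells (23.3%, 20.2 to 26.7) had UMIs of both Col12a1 and Col14a1, where independent detection would give 16.2%. In culture code 1 it was 523 of 2595 cells (20.2%, 18.6 to 21.8), where independence gives 20.4%. The UMI counts of the pair correlated at r = 0.33 over cells in the tail and 0.02 in the culture.

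In the tail cells with both collagens, 7 of the 9 tendon markers were higher than in cells with neither. The share of all genes higher in them is not given, so this count does not set tendon markers apart. Cells with both had Tnmd at 236 CPM, against 14.1 CPM in the 284 cells with neither (16.8, 9.23 to 33.4). Scx was at 2257 against 996 CPM (2.27, 2.07 to 2.48) and Col1a1 at 5844 against 1570 CPM (3.72, 3.48 to 3.98). Thbs2, a thrombospondin, was at 192 against 58.7 CPM (3.27, 2.29 to 4.72). Of the 9 tendon markers the interval of Mkx included 1 (0.682 to 3.51) and Thbs4 was lower, at 19.0 against 41.1 CPM (0.462, 0.195 to 0.981). Some genes of the loose connective tissue list were higher in them as well, among them Lum at 1091 against 272 CPM (4.01, 3.42 to 4.70), Cxcl14 (2.45, 2.07 to 2.90), Twist2 (2.98, 2.10 to 4.28) and Dpt (14.4, 3.38 to 129). Pdgfra was lower (0.652, 0.504 to 0.838). Of the collagen VI members Col6a1 (1.36, 1.14 to 1.63) and Col6a2 (1.63, 1.32 to 2.02) were higher. Col6a3 (0.875, 0.714 to 1.07) and Col6a6 (1.19, 0.728 to 1.91) did not differ beyond counting error.

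In the culture the same split differed less in Scx, Col1a1 and Tnmd. Cells with both collagens had Scx at 2361 CPM and cells with neither at 2434 CPM (0.970, 0.931 to 1.01), Col1a1 at 2965 against 2671 CPM (1.11, 1.07 to 1.15) and Tnmd at 25.5 against 9.57 CPM (2.66, 1.55 to 4.70). The Tnmd intervals of the tail and the culture do not overlap, nor do those of Scx and Col1a1. Thbs4, lower in such cells of the tail, was higher in those of the culture (1.34, 1.06 to 1.68), and Thbs2 was higher in both (1.36, 1.23 to 1.498 in the culture). Postn was also higher in those of the culture (1.06, 1.02 to 1.10), and the intervals of Mkx, Fbn2 and Egr1 included 1. Col6a2 was lower in them (0.764, 0.626 to 0.929), and the intervals of Col6a1 and Col6a3 included 1.

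**Figure D4:**
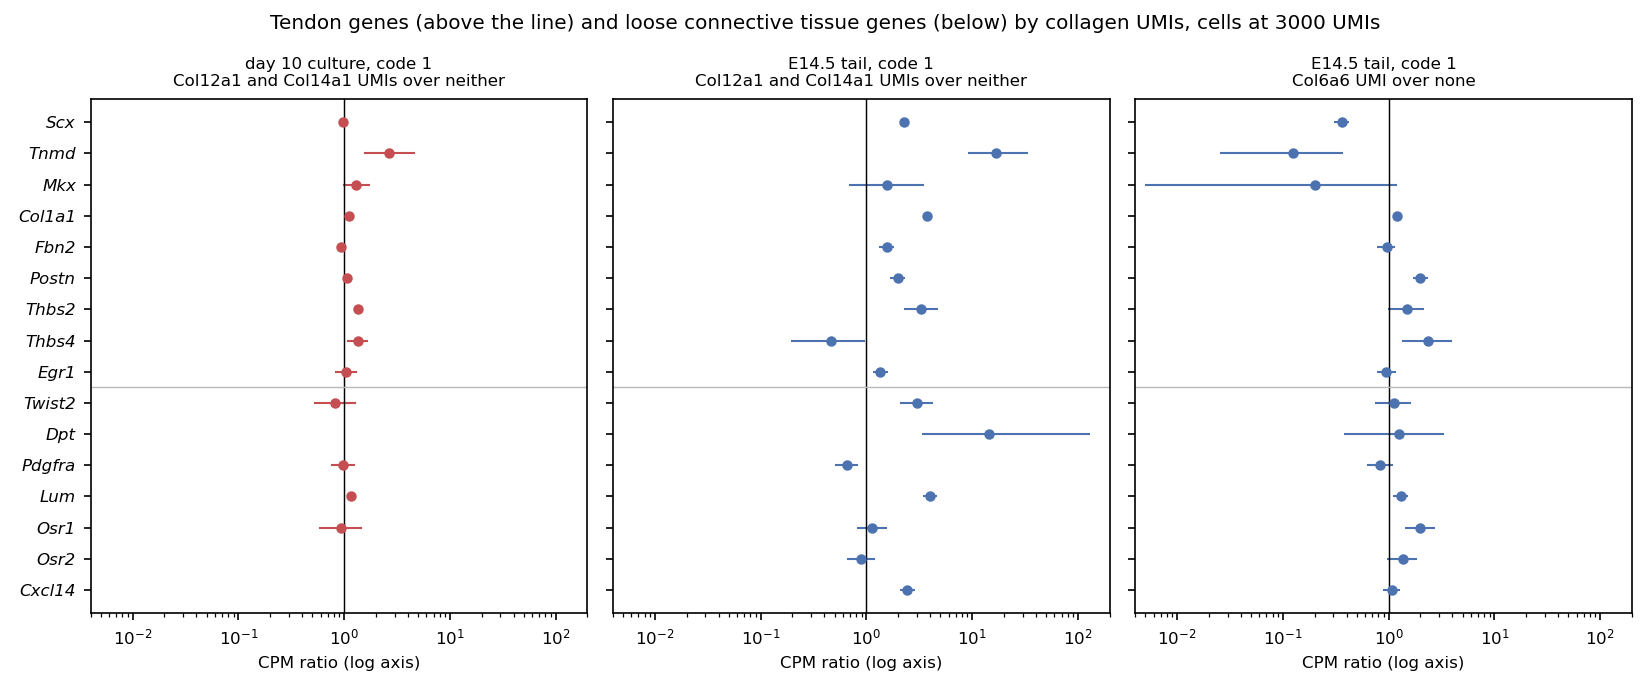
CPM ratios (log axis, 95% conditional intervals) of 9 tendon genes (above the grey line) and 7 loose connective tissue genes (below) between cells of code 1 thinned to 3000 UMIs, for cells with UMIs of both Col12a1 and Col14a1 over cells with neither in the day 10 culture (left) and the E14.5 tail (middle), and for tail cells with a Col6a6 UMI over those without (right). Tnmd is at 2.66 on the left, 16.8 in the middle and 0.124 on the right, the last from 3 UMIs and at 0.452 with 5000 UMIs a cell, and genes with 0 UMIs in either set are not drawn.

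The unnamed code 9 cells differed most between the libraries in Col14a1. It was at 31.9 CPM (14 UMIs in 53 cells) in the culture and 239 CPM (582 UMIs in 157 cells) in the tail, a ratio of 0.133 (0.0724 to 0.225). Col6a1 (667 against 436 CPM, ratio 1.53, 1.34 to 1.74) and Col6a3 (469 against 295 CPM, 1.59, 1.36 to 1.86) were higher in the culture, Col6a2 was lower (187 against 306 CPM, 0.610, 0.479 to 0.767) and the interval of Col12a1 included 1 (0.718 to 1.07). Only Col14a1 of 5 members tested passed 2-fold, against 40.9% of 10758 genes in either direction, 28.5% towards the tail and 12.4% towards the culture. Relative to the median ratio of 0.765 the genes past 2-fold (culture and tail) went from 1333 and 3064 to 1984 and 2088, and Col6a1 (2.001) and Col6a3 (2.08) passed as well. The loose connective tissue and dermis list summed to 287 CPM in culture code 9 and 3161 CPM in tail code 9, and its part in the Col14a1 difference was not tested. A UMI of a macrophage marker was seen in 4 of the 53 culture cells and 35 of the 157 tail cells.

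Without the cells with a macrophage marker UMI the ratio of Col6a1 in code 9 was 1.18 and that of Col6a3 1.25, both still above 1. That of Col6a2 was then 0.475, past 2-fold. With cells that had a Scx UMI alone, the ratio was 0.931 for Col6a1, 0.371 for Col6a2, again past 2-fold, 1.74 for Col12a1 and 0.0594 for Col14a1.

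Day 6 gave levels before the tendon step. In day 6 code 4, the cluster with the highest sum of paraxial mesoderm and somite markers (398 CPM), Col12a1 stood at 73.2 CPM, Col6a1 at 41.0 CPM, Col6a3 at 27.1 CPM, Col6a2 at 16.5 CPM and Col14a1 at 1.48 CPM (9 UMIs). Over these, culture code 1 at day 10 was 3.50 times higher for Col12a1 (3.17 to 3.87), 5.77 times for Col6a1 (5.08 to 6.59), 6.61 times for Col6a2 (5.40 to 8.17), 8.66 times for Col6a3 (7.41 to 10.2) and 200.2 times for Col14a1 (105 to 438). The libraries were made and clustered separately, and day and library cannot be told apart.

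Code 5 of the day 6 culture had these collagens, with little Col14a1. Col6a1 was at 517 CPM, Col6a2 at 145 CPM, Col6a3 at 601 CPM and Col12a1 at 638 CPM, the highest level of Col6a3 and Col12a1 in any cluster. Col14a1 was at 6.61 CPM (39 UMIs), 4.47 times (2.13 to 10.5) its level in day 6 code 4, and Col6a6 at 0 UMIs in 662 cells. This cluster held 87.3% to 94.8% of the UMIs of the trio and 88.2% of those of Col12a1 in its library. The 5 macrophage markers summed to 110 CPM there and to 0.494 CPM in code 4. The 8 tendon list genes counted at day 6 summed to far more, 5229 CPM there and 969 CPM in code 4. That list includes general matrix genes such as Col1a1, so the sum does not name the cells. The cluster was left unnamed, and the origin of its cells was not tested. Culture code 9 at day 10 resembled it in having the trio and Col12a1 with little Col14a1, at 1.29 times its Col6a1 (1.14 to 1.46) and 0.414 times its Col12a1 (0.341 to 0.498). Col14a1, low in both, was 4.82 times (2.42 to 9.08) as high in culture code 9 as in day 6 code 5.

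The order of levels shows which neighbours cannot be separated. Col6a1 was highest in culture code 9 (667 CPM), then day 6 code 5 (517 CPM), tail code 9 (436 CPM) and tail code 1 (426 CPM), the last pair not differing beyond counting error (1.02, 0.956 to 1.10). Col6a2 was highest in tail code 1 (310 CPM) and tail code 9 (306 CPM), which also did not differ (1.01, 0.933 to 1.10). Col14a1 was highest in culture code 4 (613 CPM) and next in tail code 1 (386 CPM), 1.59 times apart (1.503 to 1.674). Culture code 1 and tail code 2 did not differ in Col14a1 (1.01, 0.949 to 1.07). Col12a1 fell into a level range between 248 and 308 CPM from tail code 4 down to culture code 4 in which no neighbouring pair differed. The ends of this range did differ, culture code 4 being at 0.805 times tail code 4 (0.734 to 0.884).

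In code 5, muscle in the tail, the trio was far lower in the culture. Col6a1 was at 8.68 CPM in the culture and 75.7 CPM in the tail (0.115, 0.0835 to 0.156). The 5 members tested reached the detection limit through the tail alone, with a UMI in 12.4% to 32.2% of its cells and in 4.14% to 6.83% of culture cells. Their being past 2-fold towards the tail is therefore no result about them; of all 10908 genes tested 20.5% were past it towards the tail, 13.4% towards the culture and 33.8% in all. The 6 muscle markers summed to 469 CPM in culture code 5 and 6667 CPM in tail code 5, so that the code does not hold like cells in the 2 libraries.

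Over the 29 clusters of at least 40 cells, likeness to each member was measured in log2(CPM + 5). The 3 genes most like Col6a1 of 12142 compared were Col6a2 (Pearson r = 0.97), the collagen I gene Col1a2 (0.95) and Col6a3 (0.95). Those of Col6a2 were Col6a1 (0.97), Col6a3 (0.97) and the collagen receptor gene Ddr2 (0.97), those of Col6a3 were Ddr2 (0.98), Col6a2 (0.97) and Col1a2 (0.96), and those of Col12a1 were Col6a3 (0.94), Ddr2 (0.94) and Col1a2 (0.94). Col14a1 was most like Ogn (0.94), which encodes the small proteoglycan osteoglycin, Fibin (0.91) and Cacna1g (0.90). Col6a6 was most like Tnfaip8l3 (0.93), Slc26a7 (0.91) and Fgf7 (0.90) of 17186 genes, and at 0.47 to 0.60 with the other members. None of these 3 genes was among the top 3 of Col6a6 by Spearman correlation, and without the day 6 library none of those named for Col12a1 and Col14a1 was. The clusters share libraries and depth, and the values are descriptions.

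Partner genes of these collagens moved both ways in code 1. Of 41 genes listed, 40 were in the files and 29 were detected in at least 10% of cells. The culture was past 2-fold for 11 of the 29 and the tail for 6, against 5.76% and 13.6% of all genes tested, and the median ratio was 1.36. Matn2 (84 UMIs), Ddr1 (162) and Antxr2 (261) in 2964 culture cells, and Itga11 (55) in 685 tail cells, lay under the detection limit there. Each was admitted through the library where it was higher, so its call was fixed by the filter. The list was chosen with earlier results of these data known.

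Of the 9 matrix partners tested, 4 were past 2-fold towards the culture and 1, Matn2, towards the tail. Matn2 was admitted through the tail alone, so its call was fixed by the filter. The proteoglycan genes Bgn (1104 against 251 CPM, ratio 4.39) and Fmod (281 against 41.7 CPM, 6.75), the tenascin C gene Tnc (447 against 91.3 CPM, 4.89) and the fibronectin gene Fn1 (2882 against 717 CPM, 4.02) were higher in the culture, and Matn2, an adaptor protein gene of filamentous matrix, was at 5.06 against 107 CPM (0.0472). Dcn, the proteoglycan gene decorin, was at 1765 against 1499 CPM (1.18, 1.15 to 1.20) and Lum, the proteoglycan gene lumican, at 385 against 608 CPM (0.634, 0.612 to 0.656). Of the other FACIT genes Col9a3 was higher in the culture (138 against 38.8 CPM, 3.54) and Col16a1 in the tail (31.3 against 94.7 CPM, 0.331).

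Receptor genes moved both ways. The integrin genes Itga1 (3.65) and Itga11 (10.4), whose products bind collagens with integrin β1, were higher in the culture, with Itga11 at 56.6 against 5.43 CPM. Itga10, under the detection limit of 10% of cells, was lower in the culture on 19 and 26 UMIs (0.446, 0.233 to 0.838), and the interval of Itga2 included 1 (0.235 to 1.34). Both receptors related to anthrax toxin entry, Antxr1 (40.4 against 109 CPM, 0.371) and Antxr2 (15.7 against 55.5 CPM, 0.283), which are known to bind collagen VI, were higher in the tail, as were Ddr1 (0.327) and Ddr2 (0.478). Of the 8 processing genes 4 were past 2-fold, all towards the culture: P4ha1 (4.78), a prolyl hydroxylase, Plod1 (3.03) and Plod2 (5.85), lysyl hydroxylases, and Mmp2 (2.45), a gelatinase. Bmp1, a procollagen proteinase, was at 85.5 against 125 CPM (0.685).

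**Figure D5:**
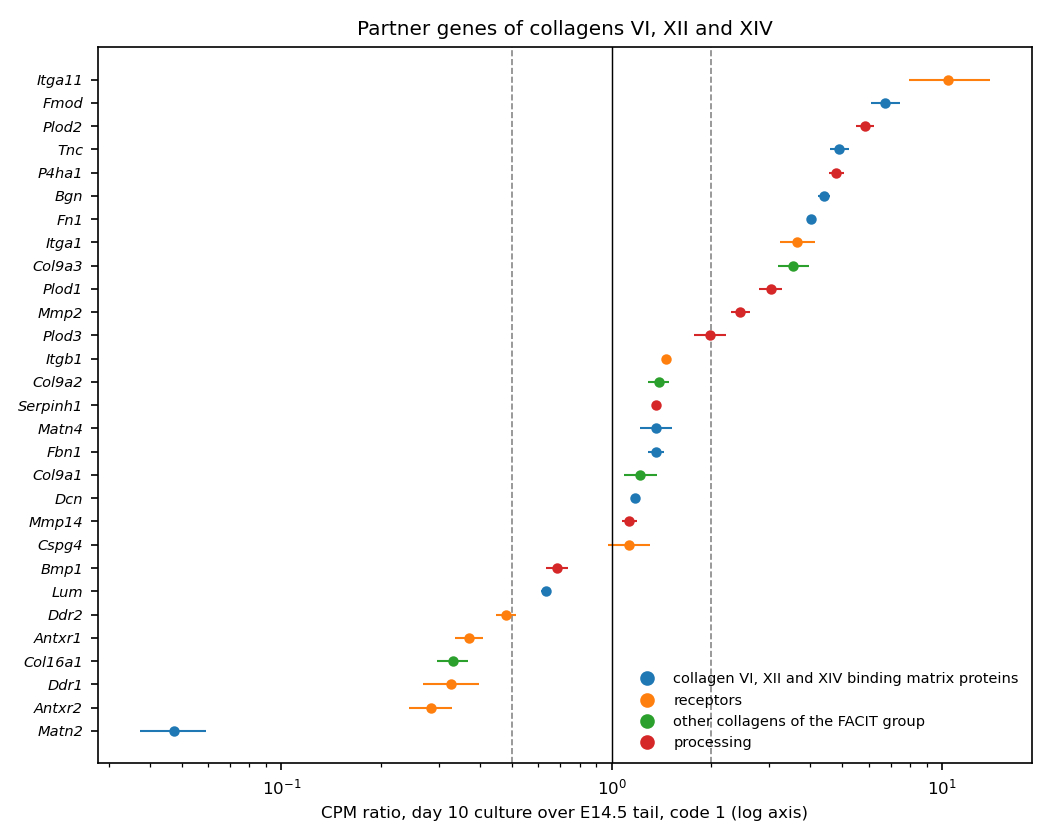
CPM ratio of the day 10 culture over the E14.5 tail in code 1 (log axis, 95% conditional intervals) for the 29 partner genes tested, coloured by list, with dashed lines at 2-fold in either direction. The genes run from Matn2 at 0.0472 to Itga11 at 10.4, both admitted to the test through the library where they were higher.

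In code 2 the same lists gave 11 genes past 2-fold towards the culture and 5 towards the tail of 29 tested, against 5.5% and 13.6% of all genes tested there. Matn2 (111 UMIs), Antxr2 (117) and Ddr1 (56) in 1353 culture cells, and Itga11 (17) in 186 tail cells, lay under the detection limit. Each was admitted through the library where it was higher, so its call was fixed by the filter. In code 4 the lists gave 9 and 8 of 31, against 4.86% and 13%. Matn1 (3 UMIs), Matn3 (8), Matn2 (15), Ddr1 (17), Antxr2 (34) and Antxr1 (85) lay under the detection limit in 855 culture cells. They were admitted through the tail alone, so their calls towards it were fixed by the filter. In code 4 Dcn was at 662 against 36.3 CPM (18.3), while the matrilin genes of cartilage, Matn1 (0.902 against 170 CPM) and Matn3 (2.41 against 90.1 CPM), were higher in the tail. Antxr1 (0.279) and Antxr2 (0.384) were again higher in the tail and Itga11 (5.97) in the culture.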

How the data were processed

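The deposited tables hold raw UMI counts per gene and cell from 10x 3′ libraries. The authors made these counts with Cell Ranger, ignored reads mapping to several genes, removed cells above 7.5% mitochondrial counts and the extreme 2% of cells at both ends, and deposited a cluster code with each cell. The genome build is not given in the sources used here. Counts were summed per cluster and library and divided by the cluster's total to give CPM, with 95% intervals for counting error (SciPy 1.17.1). Genes detected in at least 10% of cells of either library were tested against a 2-fold difference, without p-values. Shares of cells were taken after thinning to 3000 UMIs (seed 1). Doublets were called with Scanpy 1.11.5 (Scrublet, expected rate 6%) and kept: 116 in the day 10 culture, 9 in the tail and 81 in the day 6 culture. The scripts were tested on simulated data. Named were all 6 members, the 3 genes most like each in pattern over clusters (at least 100 UMIs), and listed partners past 2-fold in code 1, with others chosen after their values were seen. The members and lists were chosen with earlier results of these data known. Promoter sequences came from RefSeq, matched by symbol for 4 of the 6 members.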

Additional observations from a re-analysis of the deposited data

Results flagged for a closer look

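Some members differed in direction between clusters under the same contrast of culture and tail, with intervals off 1 on both sides. These differences between clusters were not tested, since each condition had 1 library. Col6a1 was higher in the culture in code 4 (ratio 1.28) and code 9 (1.53) and lower in code 1 (0.556) and code 2 (0.586). With cells that had a Scx UMI alone it was at 1.08 in code 4 and 0.931 in code 9, where the direction turned. Col6a3 was higher in the culture in code 9 (1.59) and lower in code 1 (0.644), code 2 (0.569) and code 4 (0.737). Col14a1 was higher in the culture in code 2 (1.15) and code 4 (2.23) and lower in code 1 (0.768) and code 9 (0.133).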

How the results depend on the processing

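The direction of all culture over tail ratios in codes 1, 2 and 4 was kept in every alternative run, 7 for each member and 6 for Col6a6 in code 4, which had no value in thinned cells. Leaving out called doublets, cells under 1000 genes, or mitochondrial, ribosomal and haemoglobin genes moved none of these 18 ratios beyond counting error. The sizes moved as follows, and the cause was not tested. As a mean of per-cell CPM, the ratio was in code 1 Col6a1 0.63, Col6a2 0.387, Col6a3 0.716 and Col14a1 0.929, in code 2 Col6a1 0.628, Col6a2 0.401 and Col14a1 1.3 and in code 4 Col14a1 2.53. With cells thinned to 3000 UMIs, the ratio was in code 1 Col6a1 0.613, Col6a2 0.41, Col6a3 0.674, Col6a6 0.00659 and Col14a1 0.845, in code 2 Col6a2 0.433, Col6a6 0.052, Col12a1 0.739 and Col14a1 1.38 and in code 4 Col6a1 1.51, Col6a2 0.701, Col12a1 0.897 and Col14a1 2.44. Relative to the median ratio, the ratio was in code 1 Col6a1 0.641, Col6a2 0.405, Col6a3 0.743, Col12a1 0.673 and Col14a1 0.885, in code 2 Col6a1 0.665, Col6a2 0.415, Col6a3 0.646, Col12a1 0.768 and Col14a1 1.3 and in code 4 Col6a1 1.45, Col12a1 0.911 and Col14a1 2.53. With cells that had a Scx UMI alone, the ratio was in code 1 Col6a1 0.713, Col6a2 0.406, Col6a3 0.719 and Col12a1 0.543, in code 2 Col6a1 0.87, Col6a2 0.527, Col6a3 0.777, Col6a6 0.0116, Col12a1 0.614 and Col14a1 1.23 and in code 4 Col6a1 1.08 and Col6a3 0.636. In codes 1, 2 and 4, 10418, 11232 and 9986 genes were tested. Those past the threshold numbered 2020, 2143 and 1785 at 2-fold, 3969, 4226 and 3665 at 1.5-fold, and 1019, 1122 and 821 at 3-fold. With detection in 25% of cells they numbered 1010, 1130 and 861, of a number tested that is not given. Members past it numbered 2, 2 and 1 at 2-fold, 5, 4 and 2 at 1.5-fold, 1, 1 and 0 at 3-fold, and 1 in code 2 with detection in 25% of cells. Col6a6, admitted through the tail alone in codes 1 and 2, is counted there at each fold. It is the only member past 3-fold, so that count was fixed by the filter. With so few members none of these counts sets them apart from other genes.

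Limits are set by the design and the depth. Each condition had 1 library, so no replicate could be left out. No paired analysis was possible because no group had a second sample. Col6a6 in culture code 9 rests on 0 UMIs in 53 cells. In code 9 the direction of Col6a1 was kept in 7 of 8 alternatives, that of Col12a1 in 6 of 8 and that of Col6a6 in 5 of 7. Chosen after seeing the data, thinning to 5000 UMIs gave Tnmd in tail cells with Col6a6 at 0.452 times that in cells without, and Scx in cells with both Col12a1 and Col14a1 at 2.65 times that in cells with neither. At 2000 UMIs these were 0.172 and 2.33. Of 48 shares of cells with a UMI, 31 moved with thinning to 2000 UMIs and 35 with thinning to 5000 UMIs. The top 3 genes most like Col6a6 shared 0 genes under Spearman correlation, and those of Col12a1 and Col14a1 shared 0 without the day 6 library.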
